A study of Mus musculus with 768 samples.

Results

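The cells described here are 50 single cells from the mammary gland of mice that carry a Cre-activated Notch1 intracellular domain (N1ICD). Whether it was switched on in each cell was not tested. They were chosen from their own reads: at least 50 CPM (the reads of a gene divided by all gene reads of that cell, times 1000000) of any of the 4 genes Nkd2, Stra6, Col6a1 and Krt14, and fewer than 3 of the 5 leukocyte genes Ptprc, Cd53, Arhgdib, Coro1a and Laptm5 at 20 CPM or more. Across both plates of the series, 617 of 768 wells held at least 50000 reads and 1000 genes. The 50 cells were 17.7% of the kept cells of their plate (95% exact binomial interval 13.4 to 22.6) and 21.6% of its non-leukocyte cells (interval 16.5 to 27.5). The plate also held 52 leukocytes, and the non-leukocyte cells without a rule gene at 50 CPM are called the other cells below.

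The plate carries the genotype WAP-CRE; R26-N1ICD-EGFP on C57BL/6 and the control plate carries WAP-CRE; R26-tdTomato on the same strain, so both groups express a Cre recombinase. Cre is driven by the promoter of the whey acidic protein gene, which is active in milk-producing alveolar cells, and it opens a cassette in the Rosa26 locus. Inguinal glands were taken after lactation, for which the design text names 3 to 4 months, and GFP-positive or tdTomato-positive cells were sorted 1 to a well before full-length (Smart-Seq2) libraries were made. Each plate is 1 sample, no animal is named, and the age of the mice is not stated. Genotype, reporter, sort and plate therefore cannot be told apart, and every comparison below describes these cells without a replicate check and without a test. All intervals are 95%, are for counts of cells and cover counting error only, since cells of 1 plate are not replicates. PCR copies carry no molecular identifiers, so reads are not counts of molecules.

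The mammary epithelium has an inner luminal layer, which holds hormone-sensing cells and the progenitors of milk-secreting cells, and an outer basal layer of contractile cells marked by keratins 5 and 14, smooth muscle actin and p63. Notch receptors are cut upon binding a ligand, and the freed intracellular domain joins the DNA-binding protein RBPJ to switch on genes such as Hes1 and Hey1. In the mammary gland, Notch activity is known to favour the luminal over the basal fate. Of the genes that choose the cells, Nkd2 encodes a Dishevelled-binding inhibitor of Wnt signalling and Stra6 the receptor that takes up retinol from its carrier protein. Col6a1 encodes a chain of collagen VI, a filament-forming matrix collagen, and Krt14 is a keratin of basal cells.

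The promoters of the 2 rule genes that chose most cells are shown because an RBPJ core motif, TGGGAA on one strand or TTCCCA on the other, can be looked for in them. Each run is the 250 bases before the RefSeq start on GRCm38.p6, read 5′ to 3′ on the minus strand, with the motif in capitals. The Nkd2 window is chr13:73847632-73847881 and the Col6a1 window is chr10:76726045-76726294.
Nkd2: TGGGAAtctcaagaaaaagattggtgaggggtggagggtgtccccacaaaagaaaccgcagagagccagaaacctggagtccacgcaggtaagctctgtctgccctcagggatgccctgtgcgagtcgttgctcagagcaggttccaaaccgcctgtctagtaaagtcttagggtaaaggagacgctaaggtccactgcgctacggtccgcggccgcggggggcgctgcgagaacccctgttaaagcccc
Col6a1: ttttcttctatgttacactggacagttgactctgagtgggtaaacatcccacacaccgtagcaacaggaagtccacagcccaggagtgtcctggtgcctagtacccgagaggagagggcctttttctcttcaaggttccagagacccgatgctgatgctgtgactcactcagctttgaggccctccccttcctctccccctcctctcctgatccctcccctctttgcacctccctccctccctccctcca
The Nkd2 window holds 1 match, which begins 250 bases before the start, and the Col6a1 window holds 0. Of 32851 windows of this length in the RefSeq table, 7094 (21.6%) hold a match on either strand, so a match is common and describes letters only.

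Nkd2 chose most of the cells. It stood at 50 CPM or more in 40 non-leukocyte cells (17.3%), Col6a1 in 27, Stra6 in 18 and Krt14 in 18. Each gene reached this level in 0 of the 52 leukocytes, a count whose interval allows a share of up to 6.85%. In the cells past the threshold, Nkd2 ranged from 164.8 to 5884 CPM with a median of 1164. Stra6 ranged from 83.8 to 1478 CPM (median 797), Col6a1 from 57.99 to 8728 CPM (median 1849) and Krt14 from 59.6 to 9246 CPM (median 2232). The genes lie on 4 chromosomes of GRCm38: Nkd2 at chr13:73818534-73847631, Stra6 at chr9:58063793-58154004, Col6a1 at chr10:76708792-76726044 and Krt14 at chr11:100203162-100207510.

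Few cells lay near the threshold. The 5 cells just inside had a highest rule gene at 57.99, 114.2, 140.8, 185.1 and 322.6 CPM, of which the lowest rests on 3 reads of Col6a1. The 5 cells just outside had 41.4, 38.7, 36.04, 12.5 and 8.95 CPM. Any read of Nkd2 was present in 13 of the other cells (7.18%), at up to 8.95 CPM.

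The 4 genes overlapped within cells. One gene alone passed in 23 cells (14 with Nkd2, 5 with Col6a1, 2 with Krt14 and 2 with Stra6), 2 genes in 10 cells, 3 in 8 and all 4 in 9. Stra6 passed in 16 of the 40 Nkd2 cells (40%) and in 2 of the non-leukocyte cells without Nkd2 (1.05%). Col6a1 passed in 21 of 40 (52.5%) against 6 of those without (3.14%), and Krt14 in 15 of 40 (37.5%) against 3 (1.57%). Of the 18 Krt14 cells, 15 passed for Col6a1 and 15 for Nkd2.

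The working name of these cells, N1ICD cells with matrix or basal genes, was checked against lists of marker genes, and broad sets of fibroblast or basal genes were read in 4 of them only. In 2 of the 50 cells, 14 and 15 of 15 fibroblast genes had a read. Both held Dcn (decorin, a matrix proteoglycan of fibroblasts) at 14417 and 20435 CPM and Col1a1 (collagen I) at 2563 and 2258 CPM, and both lacked Krt8 and Epcam reads. In 2 further cells, 15 and 16 of 20 basal genes had a read, with Krt5 at 2754 and 2803 CPM and Acta2 (smooth muscle actin) at 9199 and 9704 CPM. These 4 cells are called the fibroblast-gene and basal-gene cells. No other non-leukocyte cell of the plate reached 10 genes of either list (0 of the other cells, an interval of up to 2.02%).

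The remaining 46 cells read 0 to 3 fibroblast genes and 0 to 4 basal genes, and all 46 had Epcam, Krt8 or Krt18, genes of luminal epithelium, at 50 CPM or more. Epcam (an adhesion molecule of epithelium) had a summed level of 2908 CPM in them against 3131 CPM in the other cells, and Krt18 3237 against 3414 CPM. Krt5 had 1 read in 1 of the 46 cells, Trp63 (p63) had 0 reads, and Krt5 reached 50 CPM in 0 of the 16 Krt14 cells among them. Keratin 14 in these cells was thus read without its usual partner keratin 5. By these markers the 46 cells carry epithelial genes, few basal genes and the Nkd2, Stra6, Col6a1 or Krt14 that chose them. They are called the 46 luminal-gene members, and results are given for all 50 and for these 46. The name rests on few basal genes and on Krt18, which stood at 2.31 and 3.73 CPM in the basal-gene cells. Krt18 was read in 95.7% of the 46, so not in every one of them.

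**Figure D1:**
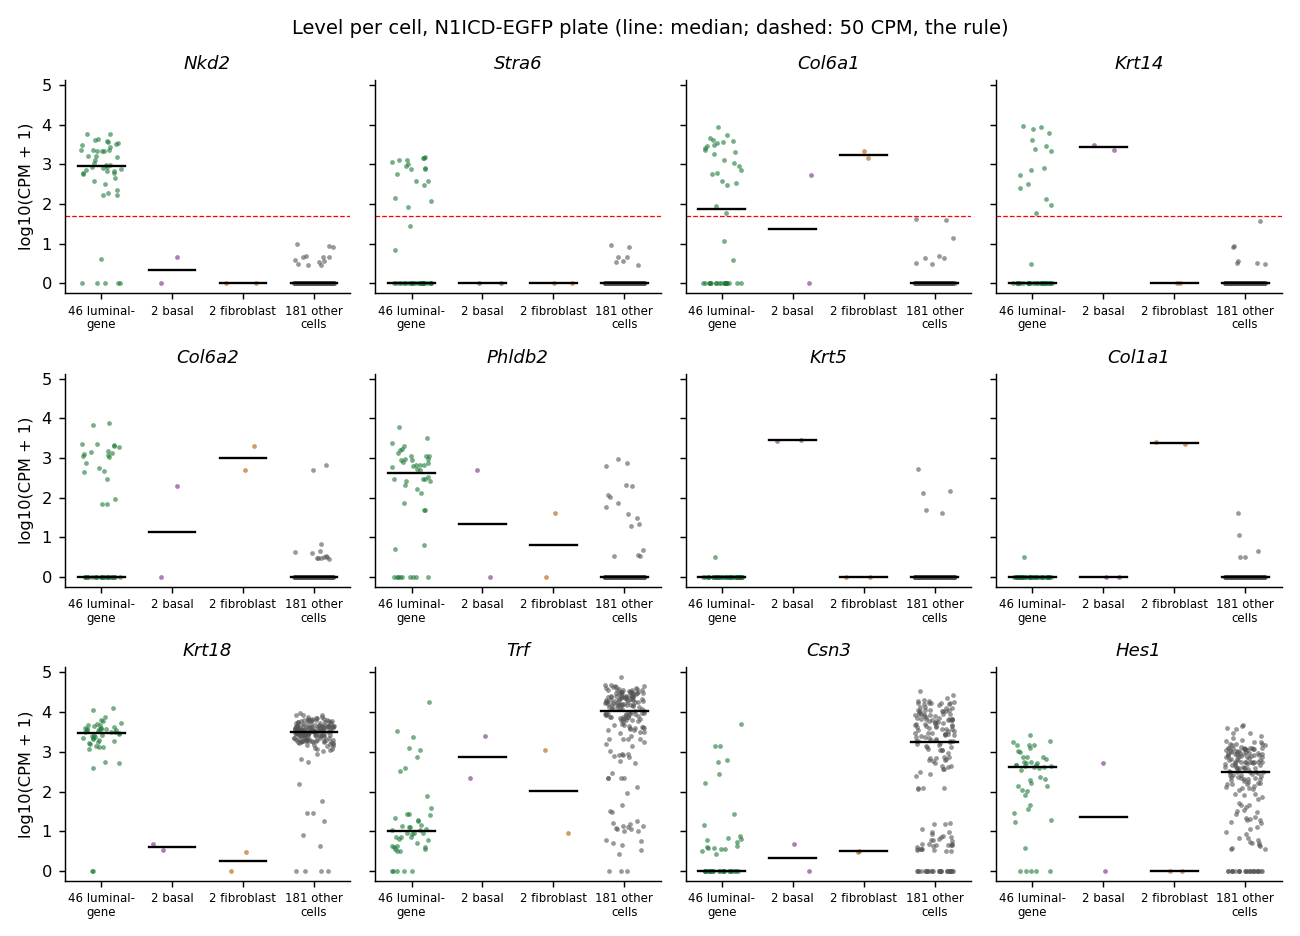
Level of 12 genes in each cell of the N1ICD-EGFP plate, as log10(CPM + 1), for the 46 luminal-gene members, the 2 basal-gene cells, the 2 fibroblast-gene cells and the other cells. Points are cells, black lines are medians, and dashed lines mark the 50 CPM of the rule. Krt5 is highest in the basal-gene cells and Col1a1 in the fibroblast-gene cells, while Trf and Csn3 are high in most other cells and low in most of the 46.

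Depth was close between the groups. The 50 cells had a median of 341282 reads and 2986.5 genes, and the other cells 352458 reads and 2418 genes. With each cell thinned to 50000 reads, the medians were 2524 and 2058 genes. Cells with more than 4537 genes, the plate median plus 3 median absolute deviations, made up 10 of the 50 (20%, interval 10.03 to 33.7) and 14 of the other cells (7.73%, interval 4.29 to 12.6). No doublet caller was run, so 2 cells in a well were not tested for, and results that change without such cells are given below. Well columns 1 to 12 held 52% of the members and 51.4% of the other cells, and 0 of the 617 kept columns were identical.

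Clustering the plate with the 9 rule genes left out placed most of these cells together. Of 8 clusters, cluster 1 held 67 cells: 42 of the 46 luminal-gene members (91.3%), 23 of the other cells (12.7%) and 2 leukocytes. The fibroblast-gene cells fell in cluster 3 and the basal-gene cells in cluster 2, each among other epithelial cells. The genes that led cluster 1 over the remaining cells were Cryba4, Calml3, Phldb2, Tbx3, Pitpnm3, Gprc5a, Krt23 and Perp. Perp, a desmosome component, stood at 2439 CPM in the cluster and 173.97 CPM outside it.

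The 23 other cells of cluster 1 had low levels of milk genes, as its members did, and they shared some of the genes that led the cluster. Trf (transferrin, an iron carrier of plasma and milk) had a summed level of 97.1 CPM in the 42 members, 187.2 CPM in these 23 cells and 17796 CPM in the other cells elsewhere. Csn3 (kappa casein) stood at 48.3, 98.9 and 4946 CPM in the same order. Phldb2 reached 50 CPM in 32 of the 42 members, 2 of the 23 and 7 of the cells elsewhere (4.43%), whereas Krt23 did so in 20 of 42, 11 of 23 and 11 elsewhere (6.96%). Of the 23, Perp passed in 16, Pitpnm3 in 9, Gprc5a in 8, Calml3 in 4, Cryba4 in 2 and Tbx3 in 1. Among the 42 members the counts were 38, 21, 28, 21, 23 and 21 in the same order. A read of any rule gene was present in 4 of the 23 cells (17.4%) and 26 of those elsewhere (16.5%). At a finer resolution of 1.2 the members fell mostly into 2 clusters, which held 42 of the 50 members and 16 of the other cells (8.84%), and the largest held 21 members.

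**Figure D2:**
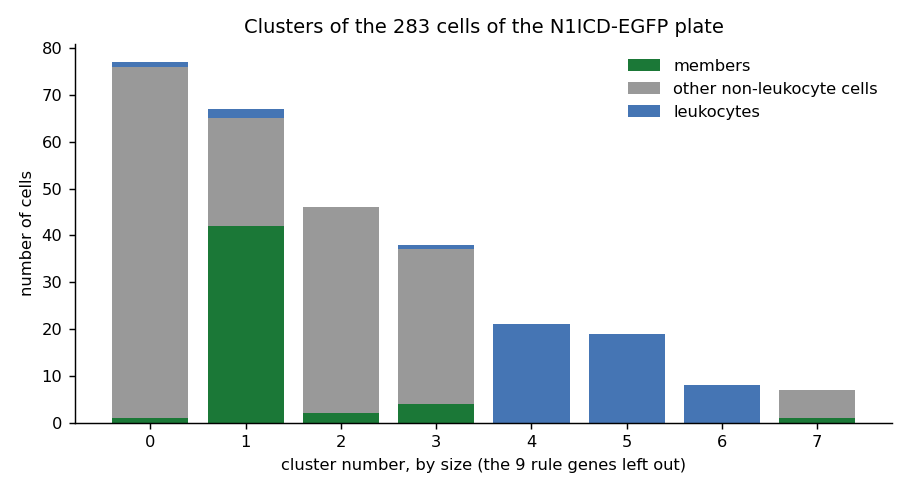
Number of cells in each of 8 clusters of the N1ICD-EGFP plate, clustered without the 9 rule genes and numbered by size. Green marks members, grey other non-leukocyte cells and blue leukocytes; cluster 1 holds 42 of the 50 members.

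Levels were next compared as sums: reads were summed over the cells of a group and scaled to CPM, and a gene was called at a ratio of 2 or more with a pseudocount of 1. Among genes at 20 CPM or more in either group, 1277 of 8916 (14.3%) were higher in the 50 members and 1129 (12.7%) were lower. For the 46 luminal-gene members the counts were 1140 of 8734 higher (13.1%) and 1234 lower (14.1%). The 9 rule genes were left out of these counts and of every gene list. Genes of the lists below were counted at 5 CPM or more in either group. Over all genes at that level, 1627 of 11325 were higher and 2172 lower in the 46. For all 50 members, 1931 of 11612 were higher and 1958 lower. List counts near these shares do not set a list apart from other genes. Ratios are given below as log2 values, and shares of cells with a read are at 50000 reads per cell.

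The genes highest in the 46 over the other cells included matrix, adhesion and oxidase genes. Col6a2, which encodes the partner chain of Col6a1 and lies beside it at chr10:76595756-76623630, was not part of the rule. It ranged from 0 to 7502 CPM in the 46 (median 0) and from 0 to 665 CPM in the other cells (median 0). Its summed level was 939 against 7.85 CPM, a log2 ratio of 6.73, and 47.8% of the 46 against 2.76% of the other cells had a read. Col6a2 was high only in some of the 46, and 2 other cells passed 50 CPM. It followed Col6a1, passing 50 CPM in 21 of the 24 Col6a1 cells of the 46 (87.5%) and in 1 of their 22 others (4.55%). Col6a3, the third chain, had 16.2 against 1.92 CPM with a read in 2.17% of the 46.

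Phldb2, a protein of the cell cortex that anchors microtubules near sites of matrix adhesion, was the most widely shared of the 14 highest, with a read in 76.1% of the 46. It ranged from 0 to 6038 CPM in the 46 with a median of 423, against 0 to 932 CPM with a median of 0, and its log2 ratio was 5.03. Among non-leukocyte cells it passed 50 CPM in 32 of the 40 Nkd2 cells (80%) and in 11 of those without Nkd2 (5.76%). Cryba4, a crystallin best known from the lens, had a log2 ratio of 5.26 (291.3 against 6.60 CPM), and Cdh15 (M-cadherin, an adhesion molecule first described in muscle) 4.81 (326.1 against 10.7 CPM). Fam180a had 2511 reads in the 46 and 0 in the other cells, so it was at least 3561-fold higher against a floor of 3 reads over that group, though only 11 of the 46 cells held a read.

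Duox2 (a hydrogen peroxide-producing oxidase) and Duoxa2 (its maturation factor) were both among the highest, with log2 ratios of 4.70 and 4.58. Chad (chondroadherin, a matrix protein of cartilage) had 4.63, Faah (an enzyme that breaks down fatty acid amides) 4.58, Tenm4 (a teneurin adhesion protein) 4.48, Aspa (an aspartate-releasing enzyme) 4.47 and Blnk (an adaptor of B cell receptor signalling) 4.43. Rnase1, a secreted ribonuclease, had 5.39 and Kctd14 had 5.26. All of these were read in 21.7% to 36.96% of the 46, which is a minority, and in 3.31% or less of the other cells. With all 50 members Matn4, a matrilin, joined the 14 highest in place of Blnk, at a log2 ratio of 4.62.

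Within the members the leading genes differed with the rule gene. Over the other cells, Col6a2, Cryba4 and Phldb2 were among the 5 highest in the Nkd2, Stra6 and Col6a1 cells. Duox2 joined them in the Stra6 cells (217.3 against 4.05 CPM). Calml3, a calmodulin-like protein of epithelia, joined in the Col6a1 cells (765 CPM in the 24 luminal-gene cells against 21.8) and in the Krt14 cells (829 CPM in 16). Since these sets share cells, their levels are not independent of each other. Lect1 (chondromodulin, a matrix protein of cartilage) had 1384 against 377.2 CPM with a read in 76.1% against 24.3% of cells, and Alox15 (a lipoxygenase) had 3574 against 817 CPM with a read in 91.3% against 41.4%.

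The lowest genes were dominated by milk and secretory products. Trf ranged from 0 to 18292 CPM in the 46 with a median of 8.96, against 0 to 76740 CPM with a median of 10519 in the other cells, a log2 ratio of -4.73. Csn3 had a log2 ratio of -4.71 (167.4 against 4395 CPM), Csn2 (beta casein) -4.66 and Csn1s1 (an alpha casein) -4.40. Of the 7 milk and secretory genes at 5 CPM or more, 6 were called lower and 0 higher, with a median log2 ratio of -4.40, beside -0.0054 over all genes at that level. The groups still overlapped in single cells, since 7 of the 46 held Csn3 at 50 CPM or more against 67.96% of the other cells.

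Other genes at the low end were the monooxygenase gene Fmo2 (log2 ratio -5.87), the chloride channel gene Clic6 (-5.84), the death receptor gene Fas (-5.82) and the growth factor-binding Igfbp5 (-5.42). Papln (-4.88), C3 (complement, -4.70), Spns3 (-4.31), Alpl (alkaline phosphatase, -4.30) and Rftn1 (-4.09) were also among the lowest 14. With all 50 members, Arhgef6 (-4.15), Ube2a (-4.13), Irs1 (an insulin receptor substrate, -4.01) and C2cd4b (-3.91) took the places of Fas, Igfbp5, C3 and Rftn1. C3 had a log2 ratio of 1.36 with all 50 members and of -4.70 without the 4 marked cells.

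Pan-epithelial genes were mostly called neither way: 1 of 16 was higher in the 46, Krt7 (a simple-epithelial keratin, 821 against 216.1 CPM), and 0 lower. Luminal progenitor genes were mixed, with 2 of 13 higher and 8 lower (median log2 ratio -1.17). Foxc1, a forkhead transcription factor of luminal progenitors, was higher (311.1 against 88.9 CPM, log2 ratio 1.80). The secreted defence protein genes Lcn2 (lipocalin 2, 589 against 5932 CPM) and Ltf (lactoferrin, 519 against 2310 CPM) were lower, as was the endotoxin co-receptor gene Cd14 (134.1 against 903 CPM). Kit, a receptor kinase of luminal progenitors, stood at 792 against 779 CPM, and Elf5, a transcription factor of alveolar cells, at 76.1 against 172.2 CPM.

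Hormone-sensing luminal genes counted 5 of 10 higher and 1 lower (median 0.66), among them Tbx3, a T-box transcription factor, at 176.9 against 8.76 CPM with a read in 54.3% against 6.63% of cells. With all 50 members the median of this list was 1.19, past a ratio of 2. It was -1.14 when cells with more than 4537 genes were left out and -0.70 when Stra6 was left out of the rule, and the top 2 members held 54.6% of the list's reads. Cluster 7, whose leading genes included Areg and Slc5a5 and in which 12 of 13 hormone-sensing genes were raised, held 1 member, which passed for Stra6.

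The basal, collagen, matrix, fibroblast and mesenchymal lists gave opposite pictures with and without the 4 marked cells. With all 50, 13 of 16 basal genes, 16 of 24 collagens, 28 of 40 matrix glycoproteins and basement membrane genes, 15 of 15 fibroblast genes and 7 of 11 mesenchymal transition genes were called higher. Their median log2 ratios were 3.77, 2.55, 3.24, 6.61 and 2.54. The 4 cells held 94.5% of the members' basal reads, 65.7% of the collagen, 68.2% of the matrix, 96.7% of the fibroblast and 69.6% of the mesenchymal reads. These shares leave out the rule genes, whose reads lay mostly in the 46. The 46 held 13286 of the members' 15098 Krt14 reads and 18730 of their 20606 Col6a1 reads. In the 46 cells the medians were -1.48 over 8 basal genes, -1.34 over 14 collagens, -0.09 over 27 matrix genes, 0.07 over 3 fibroblast genes and -2.05 over 7 mesenchymal genes. Among the other cells, 2 cells held 58.4% of the basal and 42.4% of the mesenchymal reads. For fibroblast, collagen and matrix reads this share was 10.3%, 9.95% and 7.46%. Against the other cells with Epcam, Krt8 or Krt18 at 50 CPM, the basal median was -0.23, collagen -0.64 and mesenchymal -0.87. The list medians plotted by group show all 5 of these lists lower in the 46 than in the 50.

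Single matrix genes still stood apart in the 46. Lamb3, a chain of the basement membrane laminin-332, had 246.2 against 54.4 CPM, with a read in 52.2% against 22.1% of cells. Ltbp4, which tethers latent TGF-beta to the matrix, had 64.6 against 17.2 CPM and Mmp14, a membrane-bound matrix protease, 283.3 against 88.04 CPM. Tnc (tenascin C) was lower at 22.5 against 381.8 CPM and Ltbp1 at 88.5 against 204.5 CPM. Without the rule gene Col6a1 (1274 CPM in the 46), the summed collagen level of the 46 was 1286 against 572 CPM. Col6a2 alone made up 939 against 7.85 CPM of these sums. Of the 14 collagens, 2 were called higher and 8 lower. Vim (vimentin) had 13.7 against 103.06 CPM.

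**Figure D3:**
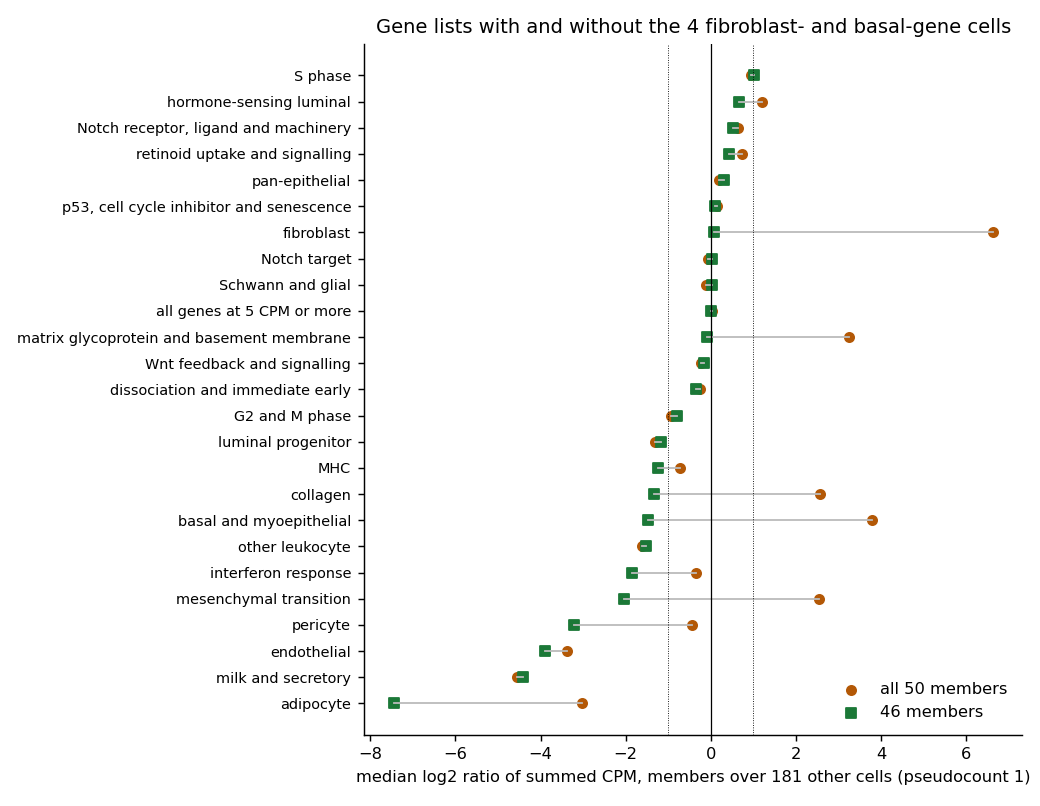
Median log2 ratio of each gene list, members over the other cells, for all 50 members (circles) and the 46 luminal-gene members (squares), with dotted lines at a ratio of 2 in either direction. The fibroblast median goes from 6.61 to 0.07 and the basal median from 3.77 to -1.48, whereas the milk and secretory median stays near -4.4.

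Markers of other cell types were at low levels. Endothelial genes had a summed 65.1 CPM in the 46 and 371.5 CPM in the other cells, where 2 cells held 76.8% of these reads, and Pecam1 had 11 reads in the 46. The endothelial median was -3.90, and -0.55 against the other cells that had Epcam, Krt8 or Krt18 at 50 CPM. Pericyte genes had 144.96 against 325.7 CPM (3 of 4 called lower, 0 higher, median -3.20), with Steap4 among the 3 lower at 37.96 against 160 CPM. The 20 other leukocyte genes had 38.8 against 52.2 CPM, with 4 at 5 CPM or more (median -1.52). Schwann and glial genes had 322.4 against 470 CPM (median 0.03), mainly Sox10 (150.5 against 320 CPM), which luminal progenitors also express, and only 1 adipocyte gene reached 5 CPM (-7.45). Of the 50 members, 47 had 0 of the 5 leukocyte genes at 20 CPM, 2 had 1 and 1 had 2. The part of these cells in the results was not tested.

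Notch pathway genes differed by gene, not as a list. Hes1, a repressor switched on by Notch, ranged from 0 to 2584 CPM in the 46 (median 410) and from 0 to 4734 CPM in the other cells (median 313.9), and the summed levels were 602 and 605 CPM. Hey1, another Notch-induced repressor, had 71.1 against 340.6 CPM, with a read in 2.17% against 41.99% of cells. In cluster 1 it reached 50 CPM in 0 of the 42 members and 1 of the 23 other cells, and elsewhere in 70 of the other cells (44.3%). The Notch target list had 1 of 6 higher and 2 lower (median 0.03).

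Receptors and machinery of the pathway had 4 of 13 higher and 2 lower (median 0.53). Notch1 stood at 240 against 277.6 CPM, though Notch1 reads can come from the transgene as well as the native gene and these counts do not separate them. Notch2 had 297.5 against 131.01 CPM, Rbpj 78.8 against 35.9 CPM, and Numb, an inhibitor of Notch, 60.9 against 163.3 CPM. With all 50, Jag1 (a Notch ligand) at 71.4 against 24.3 CPM and Numbl at 35.3 against 4.05 CPM were also higher. Nrarp, a Notch-induced feedback inhibitor, had 124.3 against 72.9 CPM, below a ratio of 2.

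The reporter reads of the plate can be compared with the rule, which did not use them. An eGFP read was present in 23 of the 50 members (46%, interval 31.8 to 60.7), all among the 46, and in 68 of the other cells (37.6%, interval 30.5 to 45.1). At 50000 reads per cell the shares were 38% (24.7 to 52.8) and 30.9% (24.3 to 38.2), and 41.3% (26.998 to 56.8) for the 46. The intervals of members and other cells overlapped. The summed eGFP level was 39.2 CPM in the 46 and 40.04 CPM in the other cells, so it was no higher in the members. The fibroblast-gene and basal-gene cells held 0 eGFP reads, and the leukocytes had 1 or more in 2 of 52.

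By rule gene, eGFP was read in 13 of the 18 Stra6 cells (72.2%, interval 46.5 to 90.3), 12 of the 18 Krt14 cells, 14 of the 27 Col6a1 cells and 21 of the 40 Nkd2 cells. Thinned, the Stra6 share was 61.1% (35.7 to 82.7), and these sets share cells. In the control plate, whose genotype names no eGFP, 54 of the other cells (18.5%) held 1 or 2 eGFP reads and 15 did after thinning (5.14%), so single reads occur as background. At 5 reads or more, the shares were 36% of the members, 34.3% of the other cells and 0 of those control cells. In well columns 1 to 12 the thinned share of members with eGFP was 23.1%, and in columns 13 to 24 it was 54.2%.

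Reads of cell cycle genes were few in both groups. At 50000 reads per cell, 4 or more of 24 genes of the G2 and M phases were read in 3 of the 50 members (6.00%, interval 1.25 to 16.5) and 4 of the other cells (2.21%, interval 0.605 to 5.56). Unthinned, the counts were 5 of 50 members and 5 of the other cells. The intervals overlapped. The list's median log2 ratio was -0.79 in the 46, but 2 of the other cells held 75.3% of that group's reads. Mki67, a marker of dividing cells, had 14.01 CPM in the 46 against 51.1, and Top2a, a topoisomerase of the same phases, 69.5 against 18.1. Without the 2 other cells with 8 or more of these genes, the median for all 50 was 2.07, the opposite direction.

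Genes of S phase, when DNA is copied, had higher summed levels in the members. Of 23 genes, 12 were called higher in the 46 and 1 lower, with a median log2 ratio of 1.02, and 0.95 for all 50. Pcna, the sliding clamp of DNA polymerase, had 93.4 against 40.5 CPM and Mcm6, part of the replicative helicase, 267.7 against 131.9 CPM. At 50000 reads, 4 or more S phase genes were read in 14 of 50 members (28%, interval 16.2 to 42.5) and 27 of the other cells (14.9%, interval 10.1 to 20.96). With 8 or more, the counts were 4 of 50 members and 0 of the other cells, an interval of up to 2.02%. The 2 members with the most S phase reads held 31.6% of the group's reads.

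**Figure D4:**
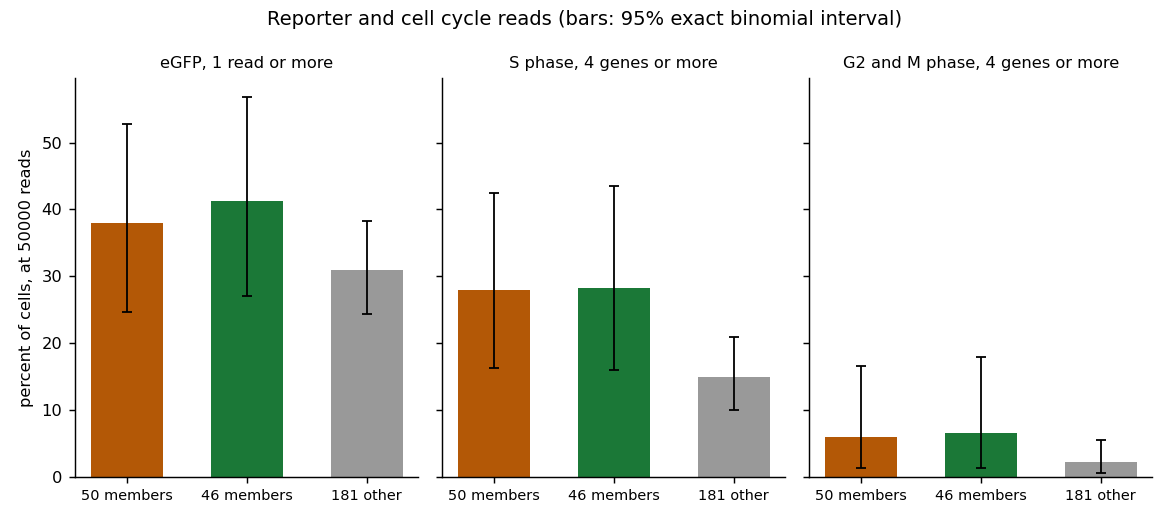
Share of cells, at 50000 reads each, with 1 or more eGFP reads, with 4 or more of 23 S phase genes and with 4 or more of 24 G2 and M phase genes. Bars are the 50 members, the 46 luminal-gene members and the other cells, with 95% exact binomial intervals, which overlap in each panel.

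Pathways named by the rule genes were read as lists too. Of 17 Wnt feedback and signalling genes, 4 were higher and 6 lower in the 46 (median -0.17). Nkd1, the paralog of Nkd2, had 0 reads in members and other cells, and Axin2, a common feedback target of Wnt, had 2.65 against 0.144 CPM with a read in 6.52% against 1.10% of cells. Fzd1, a Wnt receptor, was higher (157.9 against 50.4 CPM), and Lgr4 and Lgr6, receptors for R-spondins, were lower (16.9 against 76.5 and 29.4 against 78.9 CPM). Among 12 retinoid genes 3 were higher and 2 lower (median 0.42). Rdh10, which oxidises retinol, had 204.8 against 28.2 CPM, and Crabp2, a carrier of retinoic acid, 47.4 against 113.7 CPM.

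Interferon and antigen presentation genes were mostly lower in the 46. Of 13 interferon response genes, 10 were called lower and 1 higher (median -1.85), against 5 lower and a median of -0.34 with all 50. Of 11 MHC genes, 6 were lower and 0 higher (median -1.23), among them H2-K1 (918 against 2162 CPM) and B2m (510 against 1258 CPM). The 4 marked cells held 40.3% of the members' interferon reads and 24.6% of their MHC reads. Among 12 p53, cell cycle inhibitor and senescence genes, Mdm2 (111.5 against 48.2 CPM) and Gadd45g (370.6 against 168.05 CPM) were higher and Gadd45a (6.87 against 71.4 CPM) was lower (median 0.10).

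Dissociation and immediate early genes, which respond to tissue handling, had 1 of 15 higher and 1 lower (median -0.35). Hspa1a, a heat shock protein gene, had 165.6 against 81.4 CPM and Nr4a1, an immediate early receptor gene, 32.99 against 96.3 CPM.

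The same rule chose 18 kept cells of the control plate (5.39%, interval 3.22 to 8.38). Of these, 7 read 12 to 17 basal genes, 2 read 13 or 14 fibroblast genes and 9 read 0 to 3 fibroblast and 1 to 4 basal genes, so luminal-gene cells were 2.69% of its kept cells (9 cells, interval 1.24 to 5.05) against 16.3% of those of the N1ICD-EGFP plate (46 cells, interval 12.2 to 21.1). Stra6 reached 50 CPM in 0 of the 310 non-leukocyte control cells, an interval of up to 1.18%, and Nkd2 in 4, Col6a1 in 11 and Krt14 in 9. Cryba4 reached 50 CPM in 0 of these 310 cells. No control cell passed for 3 or 4 of the rule genes.

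In the control plate the chosen cells were led by genes of basal cells and fibroblasts: among genes at 20 CPM, 1963 of 9185 (21.4%) were higher in the 18 and 1952 (21.3%) lower. Postn (periostin) had 2326 against 3.596 CPM, Snai2 (a transcription factor of basal cells) 475 against 0.0417 CPM and Oxtr (the oxytocin receptor of contractile cells) 1178 against 3.54 CPM. Of 18 basal genes at 5 CPM, 18 were higher (median 6.67), and of 14 fibroblast genes 14. Lect1 and Alox15, high in the N1ICD members, had 0 reads in the 18 control cells. The sets of chosen cells differ in genotype, reporter and plate together, which cannot be told apart.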

How the data were processed

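The deposited values are counts of reads per gene and cell, made by the authors; STAR and mm10 are named per the submitters' processing notes, and neither counting tool nor annotation is given in the sources used here. Each plate's table has 24490 rows of gene names, of which 492 repeat a name and were summed, leaving 23997 genes beside the eGFP row, which was kept out of totals. From these counts, CPM per cell and per group sum were computed (Python 3.11.15, numpy 2.4.6, pandas 2.3.3), with exact Clopper-Pearson intervals (scipy 1.17.1) and thinning to 50000 reads. Clusters used scanpy 1.11.5: 2000 variable genes, 15 components, 15 neighbours, Leiden at resolution 0.8.

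The 50 members, the rule and the 24 gene lists were chosen with earlier results of these data known, so the lists are descriptions. Marker lists, like the rule, are not independent of the cells. Named genes were the 14 highest and 14 lowest at 20 CPM or more, read in 20% of the higher group's thinned cells, whose direction was the same for the mean over cells, the share of cells and both well-column ranges, leaving out ribosomal protein genes and predicted Gm and Rik genes; the 5 highest for each rule gene (40% of cells); up to 3 called genes a list and direction; and fixed genes. Some named genes are not reported here. The fold calls were tested on simulated data, which checks the calculation only and not the comparisons of these cells. Promoter windows and coordinates are from RefSeq on GRCm38.p6, in which 162 of 163 named genes matched. Of the wells, 101 of the N1ICD plate fell below the filter. Kept cells ranged from 51736 to 615615 reads on the N1ICD plate and from 50048 to 608476 on the control plate. Alternatives were stricter and looser filters, marker thresholds, each rule gene left out, plate ranges, scaling, pseudocount, gene floor and cluster resolution.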

Additional observations from a re-analysis of the deposited data

Results flagged for a closer look

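Some list medians pointed in opposite directions in the plates, each by more than 1.5 times, under the same rule and contrast. The S phase list had a median log2 ratio of 0.95 in the N1ICD-EGFP members and -0.90 in the 18 control cells. The hormone-sensing luminal list had 1.19 and -0.73, but the first value was -1.14 without cells of very many genes. The top 2 members held 54.6% of the members' reads of this list. The sets also differ in make-up: luminal-gene cells were 46 of the 50 members and 9 of the 18 control cells. Each is 1 plate against 1 plate, and the difference was not tested.

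Reads of the rule genes were also present in wells below the filter, which no comparison used. Nkd2 was read in 7 such wells of the N1ICD-EGFP plate (6.93%) and in 1 of the control plate (2%, 1 read). Of the reads of Nkd2 in the 7 wells, 84 came from 1 well. Krt14 was read in 6 wells (5.94%, 29 reads) and in 2 of the control plate (4%, 39 reads). The wells of the N1ICD-EGFP plate below the filter had a median of 665 reads and those of the control plate 28772.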

How the results depend on the processing

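The share of members stayed within its interval under the alternatives run, except in the rule without Nkd2 (12.7%). The share of members in 1 cluster (84%) was 59.5% with the stricter filter of 100000 reads, 47.2% with the looser one of 20000, 42% at resolution 1.2 and 96.2% in well columns 1 to 12. The share with eGFP was 23.1% in well columns 1 to 12 and 54.2% in 13 to 24, and the share with G2 and M phase genes 22% at 2 genes or more and 0% at 8 or more. Genes called lower numbered 1765 in well columns 1 to 12 and 1768 in 13 to 24, with fewer cells in each. At a floor of 1 CPM, where more genes enter, 2538 genes were higher and 2864 lower, against 1277 and 1129 at 20 CPM. Among lists with 3 or more genes at 5 CPM, which leaves out the adipocyte list, 6 were past a ratio of 2 higher and 4 lower. They became 1 and 9 in the rule without Col6a1 and 1 and 10 without the 4 marked cells, and 1 was higher without those cells against epithelial other cells. The settings without the 4 marked cells, and that without the 2 other cells of many G2 and M phase genes, were chosen after seeing the data.

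Reversals came mostly where the fibroblast-gene cells (which pass the rule for Col6a1) or the basal-gene cells were left out. In the rule without Col6a1, collagen was -1.31, matrix -0.48, fibroblast -4.39 and mesenchymal transition -2.21, with C3 at -7.66, Col6a3 -0.28, Gsn -1.38, Pdgfra -4.03 and Pdgfrb -1.68. Without the 4 cells, basal was -1.48, collagen -1.34, matrix -0.086 and mesenchymal -2.05, with Acta2 at -0.16, C3 -4.70, Krt5 -2.65, Pdgfra -3.23, Trp63 -2.82 and Vim at -2.83. Without them against epithelial other cells, basal was -0.23, collagen -0.64 and mesenchymal -0.87, with Acta2 at -0.19, C3 -4.73, Krt5 -2.68, Pdgfra -3.26 and Trp63 -2.85. The hormone-sensing median was -0.70 without Stra6 in the rule, -1.14 without cells of very many genes and -2.57 in well columns 1 to 12. The G2 and M phase median was 1.91 in well columns 13 to 24 and 2.07 without the 2 cells with 8 or more of its genes, and Mki67 was 0.031 and 2.07 there. Mdm2 was -0.47 without Nkd2 in the rule and -0.59 in well columns 13 to 24, where Trp63 was -3.38. For the hormone-sensing, G2 and M phase, Mki67, Mdm2 and well-column results, and for the cluster share, the cause was not tested. Of the values of named genes, 1757 did not change their call at a ratio of 2, while 37 became stronger, 41 weaker and 21 reversed. For list medians the counts were 402, 24, 17 and 16. Changes of sign below a ratio of 2 on both sides count as unchanged here. No paired analysis was possible because each plate is 1 sample and replicate numbers only name cells.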
